A study of Macaca mulatta with 6 samples.

Results

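The C/EBP transcription factors were represented by 9 probe sets of 5 genes, CEBPA, CEBPB, CEBPD, CEBPG and CEBPZ, out of 52024 probe sets and 14132 named genes on the array, and they were taken as every probe set to which the annotation of the array gave 1 of these symbols. CEBPA had 3 probe sets, CEBPB and CEBPG had 2 each, and CEBPD and CEBPZ had 1 each. They were measured in the retinas of 3 male rhesus macaques aged 8 to 10 years. In each animal the intraorbital part of the optic nerve on 1 side was irradiated by gamma knife, a form of stereotactic radiosurgery, at a prescribed dose of 15 Gy, and both eyes were removed 24 h later. The retina on the irradiated side is called treated (3 retinas) and the contralateral retina of the same animal is called control (3 retinas). The treated eyeball itself received 3 Gy and the control eyeball 1 Gy, so the control retinas were not free of dose, and the irradiation of the nerve and the dose to the eye cannot be told apart. Total RNA of the temporal retina, dissected without the pigment epithelium, was hybridized to 1 single-color Affymetrix Rhesus Macaque Genome Array per retina. Values are the deposited log2 signals, whose median over all probe sets lay between 6.44 and 7.03 on the 6 arrays, and with 3 pairs of arrays the precision is limited by their number. The samples are bulk tissue, in which fewer cells of a type and less RNA per cell cannot be told apart.

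The C/EBP factors are basic leucine zipper (bZIP) proteins that bind DNA as dimers with each other or with related zipper proteins. CEBPA drives the differentiation of myeloid cells, liver and fat, while CEBPB and CEBPD are induced by cytokines of the interleukin-6 and interleukin-1 types, switch on acute phase genes, and are known in the nervous system from reactive astrocytes and microglia. CEBPG lacks an activation domain of its own and works through partners such as ATF4. CEBPZ carries the family symbol because it was found as a CCAAT-box binding protein, but it is a nucleolar protein without the zipper that takes part in the assembly of the large ribosomal subunit. CEBPZ is also distinct from DDIT3 (CHOP), the stress-induced bZIP protein that has been called C/EBP zeta.

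CEBPD, a factor induced early in inflammation, was 3.12-fold higher in treated than in control retinas and had the largest increase of the 9 probe sets in each of the 3 pairs. CEBPB stood at 1.60-fold by its brighter probe set and 1.27-fold by the other, and CEBPA at 1.20-fold by its brightest. CEBPG and CEBPZ lay within a few percent of equal signal. None of the 9 probe sets passed an adjusted p of 0.05 (limma, paired by replicate number, Benjamini-Hochberg over all probe sets), a threshold that 0.110% of all probe sets passed as higher and 0.00192% as lower in treated retinas. CEBPD was next to it, with an adjusted p of 0.0547 from limma. Before adjustment, 3 of the 9 probe sets had a higher signal with a p under 0.05 and 0 a lower one, those of CEBPD and both of CEBPB, where 2.97% of all probe sets were higher and 3.77% lower. By the paired test that the methods name (the methods' t-test), 2 of the 9 were higher at a p under 0.05, CEBPD and the dimmer CEBPB probe set, against 2.68% of all probe sets, and 0 passed after adjustment. In 2 of the 9, CEBPD and the brighter CEBPB probe set, every treated array lay above every control array, which held for 3.11% of all probe sets, and 4 of the 9 were higher in 3 of 3 pairs, which held for 13% of all.

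**Figure D1:**
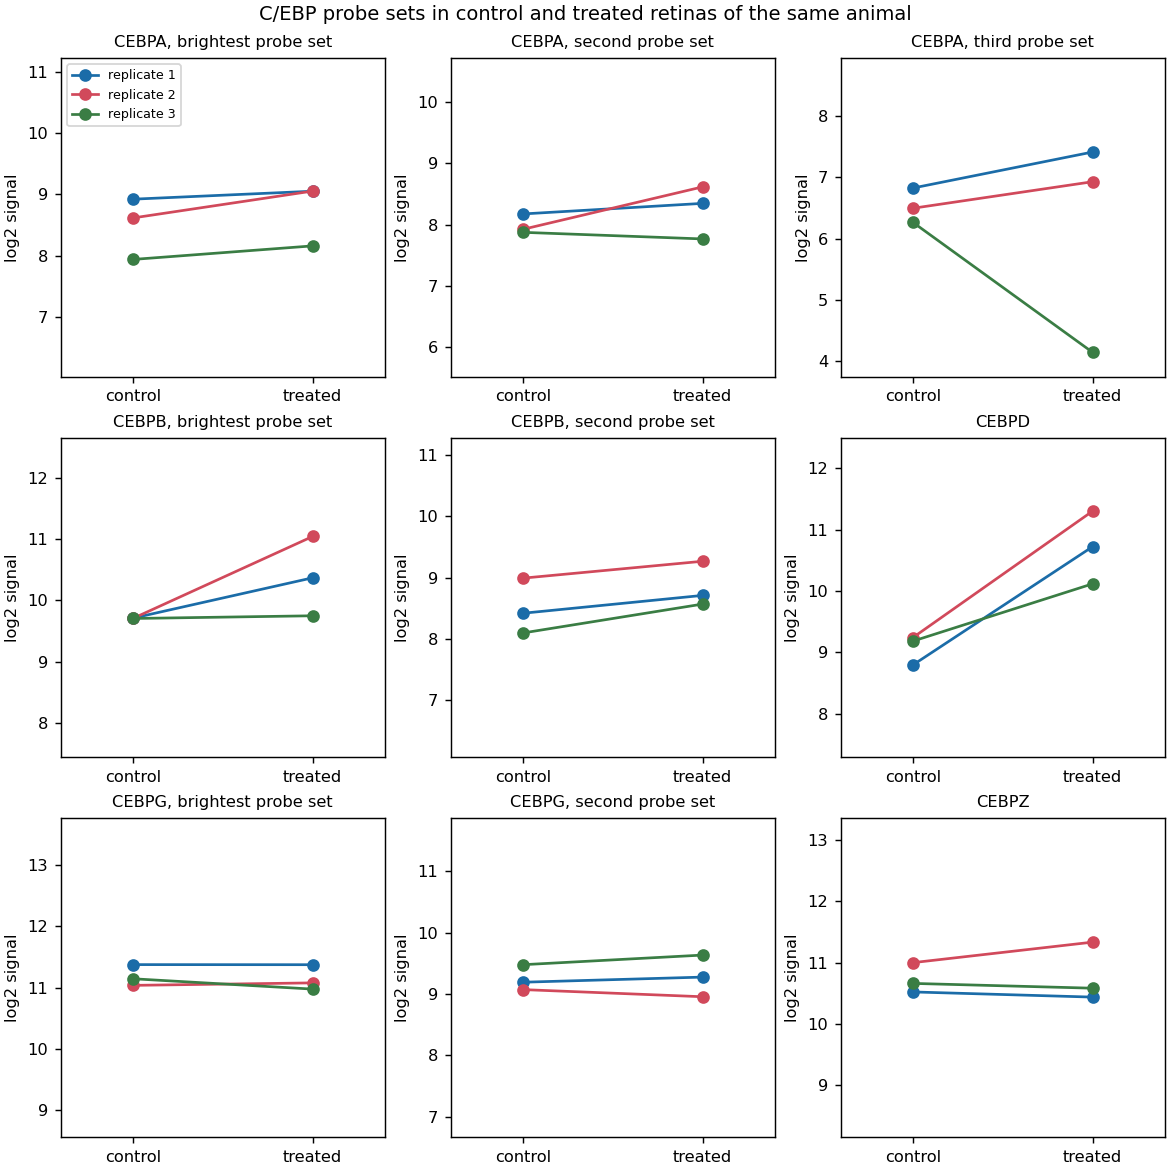
Log2 signal of each of the 9 C/EBP probe sets in the control and treated retina of each replicate number, joined by a line, with every panel spanning the same height in log2 units. CEBPD climbs in all 3 pairs, from 8.79, 9.24 and 9.18 to 10.73, 11.31 and 10.12, while the lines of CEBPG and CEBPZ are nearly flat.

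The log2 signal of CEBPD was 8.79, 9.24 and 9.18 in the control retinas of replicates 1 to 3, and 10.73, 11.31 and 10.12 in the treated retinas of the same numbers. The groups did not overlap: the lowest treated retina, that of replicate 3, lay above the highest control retina, that of replicate 2. The mean was 9.07 ± 0.24 (SD, 3 retinas) in control and 10.72 ± 0.59 (SD, 3 retinas) in treated retinas, a difference of 1.64 (SE 0.21, 95% interval 1.15 to 2.13). As a fold this interval runs from 2.22 to 4.39. Within the pairs the folds were 3.81, 4.18 and 1.91, so the smallest of them, in replicate 3, was still close to a doubling. CEBPD ranked at position 65 of 52024 by its p in limma. Its adjusted p (limma) fell to 0.0451 after quantile normalization and 0.0231 after median centring of the arrays. The call thus differed with the scaling, while the difference itself stood at 1.66 and 1.74. Leaving out the animal of replicate 1 gave an adjusted p of 0.313 (limma), and leaving out that of replicate 2 or of replicate 3 gave 7.204e-04 or 2.380e-04. These fits keep few residual degrees of freedom, so their p-values lean on the variance that limma borrows from other probe sets. The count of all probe sets called higher moved as well, from 57 to 17, 166 and 109 without replicate 1, 2 and 3. Without the pairing the adjusted p was 0.714, and without the trend in the variance 0.854 (both limma).

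**Figure D2:**
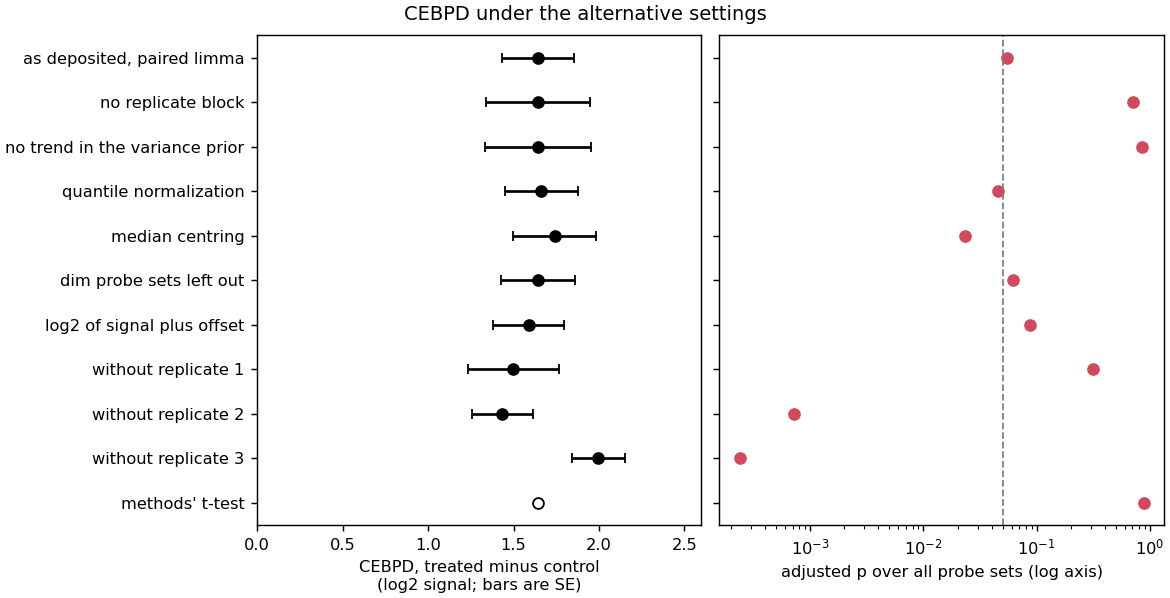
Treated minus control difference of CEBPD in log2 signal (left, bars are the SE of limma, and the open point has none) and its adjusted p over all probe sets on a log axis (right, dashed line at 0.05), as deposited and under each alternative. The difference stays between 1.43 and 1.997 in all 11 settings shown, while the adjusted p falls on both sides of the line.

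CEBPB, which shares the acute phase role of CEBPD, was described by a brighter probe set, of the Affymetrix s_at type whose probes can match more than 1 transcript, and a dimmer one of the unique type. By the brighter probe set the control retinas of replicates 1 to 3 had log2 signals of 9.71, 9.71 and 9.71, and the treated retinas 10.37, 11.04 and 9.75. The control retinas were thus almost the same (SD 0.0028), the treated retinas spread over more than a log2 unit, and the treated retina of replicate 3 lay only just above the controls. The difference was 0.68 (SE 0.22, 95% interval 0.18 to 1.18, unadjusted p = 0.0148, adjusted p = 0.676 from limma). Its folds in the pairs were 1.58, 2.53 and 1.03, and without replicate 2 the difference was 0.35 and without replicate 3 it was 1.00. By the dimmer probe set the control retinas had 8.42, 8.99 and 8.10 and the treated retinas 8.71, 9.27 and 8.57, so that the animals differed more than the sides did and the groups overlapped. That difference, 0.35 (SE 0.14, 95% interval 0.0092 to 0.68, adjusted p = 0.736 from limma), was even over the pairs, at 0.29, 0.28 and 0.47. Both CEBPB probe sets were higher in 3 of 3 pairs, but replicate 3 had the smallest difference of the pairs by the brighter one and the largest by the dimmer one.

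CEBPA, the factor of myeloid and metabolic differentiation, gave no common direction over its 3 probe sets. The brightest had log2 signals of 8.92, 8.62 and 7.94 in control and 9.05, 9.06 and 8.16 in treated retinas of replicates 1 to 3, with both retinas of replicate 3 the lowest. Its difference was 0.26 (SE 0.15, 95% interval −0.088 to 0.61, adjusted p = 0.754 from limma) and was above 0 in 3 of 3 pairs. The second, an s_at probe set, had 8.18, 7.93 and 7.88 in control and 8.35, 8.62 and 7.77 in treated retinas. Its difference of 0.25 (SE 0.21, adjusted p = 0.810) came with a lower treated retina in replicate 3. The third and dimmest had 6.82, 6.49 and 6.26 in control and 7.41, 6.93 and 4.14 in treated retinas, and its mean difference of −0.37 (SE 0.58, 95% interval −1.71 to 0.97) rested on the treated retina of replicate 3, whose difference from its control was −2.12. Without replicate 3 the third probe set stood at 0.51. A signal of 4.14 is in the range, below a log2 signal of 5, that held from 22.6% to 29.7% of the probe sets of an array.

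CEBPG, the partner of ATF4, had nearly the same signal on both sides. By its brighter probe set the control retinas had log2 signals of 11.38, 11.04 and 11.15 and the treated retinas 11.38, 11.08 and 10.98, which overlapped fully. The difference was −0.043 (SE 0.094, adjusted p = 0.938 from limma), a fold of 0.971 with a 95% interval from 0.834 to 1.13. The second probe set had 9.19, 9.07 and 9.48 in control and 9.28, 8.96 and 9.64 in treated retinas, for a fold of 1.03 with an interval from 0.839 to 1.26. The sign of the difference of the brighter probe set turned, to 0.054, after median centring, so no direction is given for CEBPG. CEBPZ, the ribosome assembly factor, had 10.52, 11.002 and 10.66 in control and 10.44, 11.34 and 10.58 in treated retinas. It was lower in replicates 1 and 3 and higher in replicate 2, both of whose retinas were the brightest, and its fold was 1.04 with a 95% interval from 0.863 to 1.26 (adjusted p = 0.932 from limma). The intervals of CEBPG and CEBPZ hold no fold as large as that of CEBPD at its lower bound of 2.22.

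**Figure D3:**
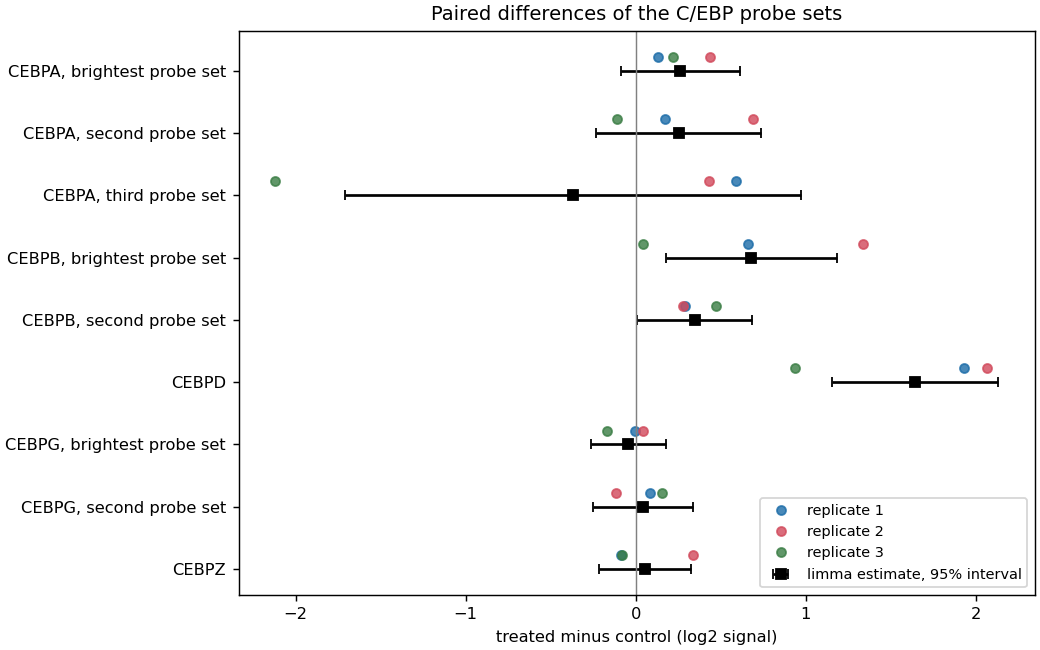
Treated minus control difference in log2 signal of the 9 C/EBP probe sets: black squares are the limma estimates with their 95% intervals, and colored points are the single pairs of retinas. In this fit, with its trended eBayes, the interval of CEBPD, from 1.15 to 2.13, lies farthest from 0 and both CEBPB intervals lie just above 0. Without the trend the brighter and dimmer CEBPB probe sets have an unadjusted p of 0.117 and 0.102 (limma). The wide interval of the third CEBPA probe set follows from replicate 3.

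With the sign counted, replicate 3 had the lowest treated minus control value of the 3 pairs in 4 of the 6 probe sets of CEBPA, CEBPB and CEBPD, among them the −2.12 of the third CEBPA probe set, and replicate 2 had the highest in 4 of the 6. The median over all named genes was likewise highest in replicate 2 and lowest in replicate 3, at 0.036, 0.069 and −0.0036 in replicates 1 to 3. Over the 6 arrays the signal of the brighter CEBPB probe set ran alongside that of CEBPD (Pearson's r = 0.89) and that of the second CEBPA probe set (r = 0.90), and CEBPD against the brighter CEBPG probe set gave r = −0.15. The 6 arrays come from 3 animals and share the treatment, so these correlations are a description. GFAP, the filament of reactive glia, also had its smallest difference in replicate 3, with control values of 10.67, 11.21 and 10.71 and treated values of 12.93, 14.03 and 12.07, and its difference of 2.14 passed (adjusted p = 0.0303 from limma), while its dimmer probe set stood at 0.099.

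The genes whose log2 signal was most like that of each factor over the 6 arrays were looked up among 9679 other named genes that were brighter than the median probe set. With 6 arrays and so many candidates, the named r was at least 0.991 for every factor, CEBPG and CEBPZ included. The r values below are thus a description, and a shared control of these genes was not tested. For CEBPD these were HERC6, an interferon-induced ubiquitin ligase of the HECT class (r = 0.995), CDIP1, a p53-induced apoptosis gene (r = 0.992), and PSD2, an exchange factor for ARF6 (r = 0.991). Their treated minus control differences were very unequal, at 1.14 for HERC6 (adjusted p = 0.231 from limma), 0.095 for CDIP1 and 1.92 for PSD2 (adjusted p = 0.0238). For CEBPB they were CCNJL, a cyclin-like gene (r = 0.996), PEPD, the peptidase that splits dipeptides with a terminal proline (r = 0.995), and the transcribed pseudogene LOC695949 (r = 0.992), with differences of 0.23, 0.30 and 0.16. For CEBPA they were IWS1, a partner of the elongation factor SPT6 (r = 0.997), DPYSL3, a neuronal protein of growth cones (r = 0.994), and RNLS, renalase (r = 0.994). For CEBPG they were PRTFDC1 (r = 0.994), PDE8B, a cyclic AMP phosphodiesterase (r = 0.993), and HAPLN4, a hyaluronan link protein (r = 0.993), and for CEBPZ the metallothionein gene MT1X (r = 0.996), HIBADH, an enzyme of valine breakdown (r = 0.993), and NME5 (r = 0.992). By limma, none of the genes named for CEBPA, CEBPB, CEBPG and CEBPZ passed an adjusted p of 0.05.

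By gene order in the rhesus reference, CEBPA and CEBPG are adjacent protein-coding genes, and PEPD follows CEBPG. Of the neighbors that were measured, SPIDR and PRKDC, 2 genes of DNA repair on either side of CEBPD, stood at 0.045 and −0.0045 in log2 difference, against 1.64 for CEBPD itself. PEDS1 and PTPN1, beside CEBPB, stood at 0.056 and −0.13, and NDUFAF7, beside CEBPZ, at 0.023. PEPD had a difference of 0.30 (SE 0.13, adjusted p = 0.736 from limma).

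Genes that act with the C/EBP factors were followed through 7 lists, each gene by its brightest probe set. Over all 14132 named genes the median log2 difference was 0.032, 55.5% lay above 0, and 0.205% passed as higher at an adjusted p under 0.05. Of the dimer partners and other bZIP genes, 15 of 20 were measured, 9 of them lay above 0, 0 passed, and their median was 0.19. Leaving out replicate 1, 2 or 3 gave medians of 0.027, 0.080 and 0.35 in that order, where those of all named genes were 0.036, 0.018 and 0.048. At an unadjusted p under 0.05, 2 were higher (5.02% of all named genes were), JUNB and BATF3, and 0 lower (3.01% of all were). JUNB, a subunit of AP-1, had log2 signals of 7.74, 8.35 and 8.21 in control and 8.88, 8.83 and 9.08 in treated retinas, with no overlap, and a difference of 0.83 (adjusted p = 0.388 from limma). BATF3, a factor of dendritic cells and lymphocytes, had 6.03, 4.10 and 3.37 in control retinas, under 5 in replicates 2 and 3, and stood at 7.01, 5.64 and 5.79 in treated retinas (difference 1.65, SE 0.57). ATF3, a stress-induced factor, had −0.57, 0.32 and 1.80 by its 3 probe sets in order of brightness, and NFIL3, a repressor related to the clock factors, stood at 0.22. The other C/EBP gene, CEBPE, a factor of granulocytes, stood at 0.43 (SE 0.47), and DDIT3 at 0.21 (SE 0.13).

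Upstream of CEBPB and CEBPD, 16 of 21 cytokine, receptor and NF-kB genes were measured, with a median difference of 0.44, 10 above 0 and 0 past the threshold. Before adjustment, 2 (OSMR and JAK2) were higher and 0 lower at a p under 0.05, met by 5.02% and 3.01% of all named genes. OSMR, the receptor chain for oncostatin M, had log2 signals of 8.71, 9.12 and 9.08 in control and 9.98, 10.32 and 9.81 in treated retinas. Its difference of 1.07 (SE 0.14, adjusted p = 0.0638 from limma) was accompanied by 0.37 and −1.05 from its dimmer probe sets. JAK2, a kinase of cytokine receptors, stood at 0.42 (adjusted p = 0.671 from limma), with its dimmer probe sets at 0.22 and −0.034. RELB, an NF-kB subunit, stood at 1.07 (2.62, 0.51 and 0.078 in the pairs, the first from a control signal of 4.79). TNF, a cytokine of microglia and macrophages, stood at 1.82. The TNF values of control retinas, 4.92, 1.81 and 2.67, were all in the dim range. STAT3, which acts on the CEBPD gene, stood at 0.57, from 1.02, −0.79 and 1.48 in the pairs. IL6 stood at −0.79 and SOCS3, the feedback inhibitor, at −1.27, the last from a mean signal of 4.603. STAT3, IL6 and SOCS3 are named here after their values were seen.

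Downstream, 22 of 25 acute phase and inflammatory genes were measured. Of these, 13 lay above 0, their median was 0.12, 7 were higher and 0 lower before adjustment (p under 0.05, met by 5.02% and 3.01% of all named genes), and CCL2 and SOD2 passed after adjustment. With replicate 1, 2 or 3 left out, their median became 0.053, 0.27 and 0.24 in that order. CCL2, a chemokine for monocytes, rose by 3.04 (adjusted p = 0.0164 from limma) and SOD2, the mitochondrial superoxide dismutase, by 1.76 (adjusted p = 0.0303), although its second probe set stood at −0.11. The brightest of 4 probe sets of CP, the copper protein ceruloplasmin, gave 1.82 (adjusted p = 0.0588) while the other 3, which passed, gave 2.09, 2.17 and 2.33. LYZ, lysozyme, had 11.63, 11.30 and 10.80 in control and 13.50, 12.17 and 11.87 in treated retinas, a difference of 1.27 (adjusted p = 0.0745). Among the secreted liver proteins of the list, SAA1 stood at −0.27, SAA2 at −0.15, ORM1 at −0.17, CRP at −0.23 and ITIH4 at −0.13. LBP stood at −0.0028, SERPINA3 at 0.065, HP at 0.17 and FGB at 0.25. None of the genes from SAA1 to FGB passed an unadjusted p of 0.05 (limma). HPX, hemopexin, stood at 0.69 (0.99, 0.98 and 0.11 in the pairs) and CFB, complement factor B, at 2.32 (−1.23, 5.16 and 3.04), both past it. LCN2, lipocalin 2, stood at 0.0019 by the brightest of its 4 probe sets. The genes from SAA1 to LCN2 are named after their values were seen.

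**Figure D4:**
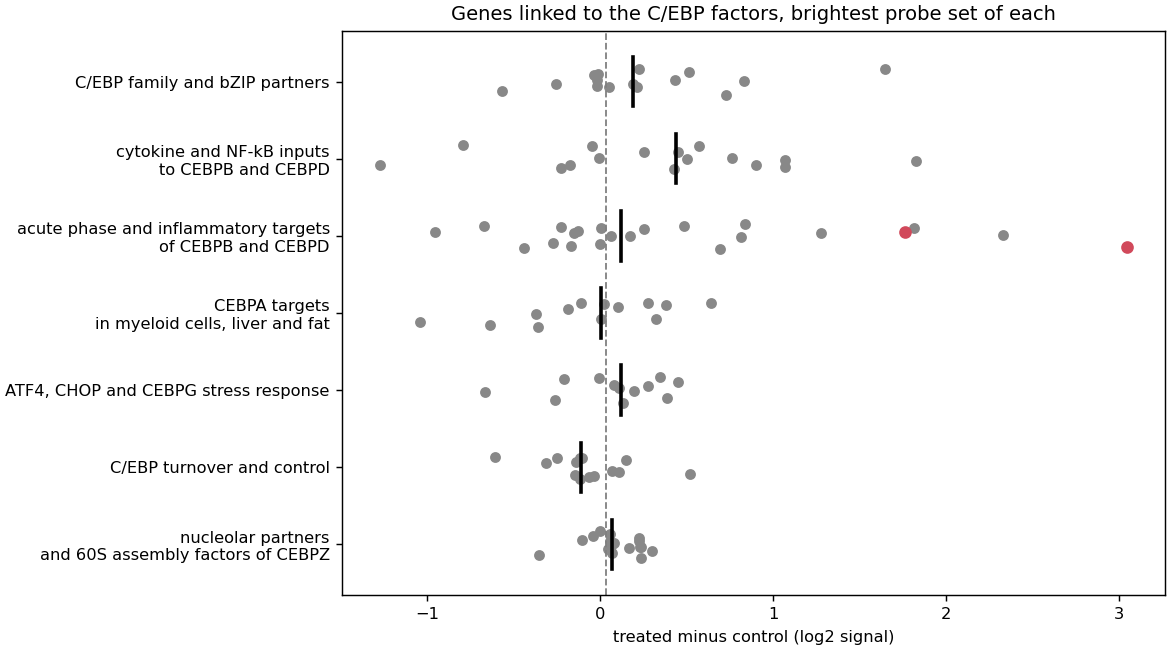
Treated minus control log2 difference of each gene in the 7 lists linked to the C/EBP factors, 1 point per gene by its brightest probe set, with the list median as a black bar and the median of all named genes, 0.032, as a dashed line. Red points passed an adjusted p of 0.05, and they are SOD2 at 1.76 and CCL2 at 3.04.

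The 4 remaining lists had medians from −0.11 to 0.12 and 0 genes past the threshold. Their counts stand against all named genes, of which 55.5% lay above 0. In that full set, limma gave 5.02% a raised and 3.01% a reduced signal with p below 0.05 before adjustment. Of 15 targets of CEBPA in myeloid cells, liver and fat, 13 were measured, with a median of 0.0021, 7 above 0, and FABP4 the 1 gene at an unadjusted p under 0.05. FABP4, the fatty acid carrier of fat cells, stood at 0.38, PCK1, the enzyme of gluconeogenesis, at −1.04, TAT, a liver transaminase, at −0.64 and ELANE, neutrophil elastase, at 0.64. Of 19 genes of the stress response of ATF4, CHOP and CEBPG, 12 were measured, with a median of 0.12, 8 above 0, and 3 higher and 0 lower before adjustment. These were ASNS, asparagine synthetase, at 0.39 (adjusted p = 0.614 from limma), XBP1, a factor of the unfolded protein response, at 0.28, and CHAC1, an enzyme of glutathione breakdown, at 0.45, while SHMT2, a mitochondrial enzyme of serine metabolism, stood at 0.35. Of 17 genes that modify or degrade C/EBP proteins, 14 were measured, with a median of −0.11 and 4 above 0. MAPK3, a kinase that phosphorylates CEBPB, stood at −0.25 and was the 1 gene of this list at an unadjusted p under 0.05, with CDK2 at −0.61, GSK3B at −0.31 and E2F1 at 0.52. Of 22 nucleolar partners of CEBPZ and assembly factors of the large ribosomal subunit, 17 were measured, with a median of 0.067 and 13 above 0. EBNA1BP2, at 0.24, was the 1 gene of this list at an unadjusted p under 0.05, and FBL, the rRNA methylase, stood at 0.24, BRIX1 at 0.30 and RRS1 at 0.23.

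The tissue was retina by its markers: SAG, the rod arrestin, had a mean log2 signal of 15.4, and all 9 measured rod and cone genes had a signal above 11. Markers of cell types known to express CEBPB and CEBPD lay as follows, and their part in the CEBPD and CEBPB values was not tested. Of 12 measured microglia and macrophage markers, 7 lay above 0, with a median of 0.44, 5 higher at an unadjusted p under 0.05 (5.02% of all named genes were) and 0 past the threshold. C1QA, a complement chain made by microglia, stood at 0.61 and AIF1 at 0.78. Those below 0 were ITGAM at −0.43, P2RY12 at −0.27 and TMEM119 at −0.47, each lower in 3 of 3 pairs, CD68 at −0.19 and the complement chain C1QC at −0.11. The summed signal of the list in log2 was 11.3 to 11.5 in control and 11.6 to 11.8 in treated retinas, and TMEM119 was dim with a mean of 3.31. Of 11 blood leukocyte markers, 7 lay above 0 and 6 had a mean signal under 5, with a summed signal of 8.39 to 9.44 in control and 8.75 to 9.60 in treated retinas. S100A9 and S100A8, a pair of calcium-binding proteins of neutrophils and monocytes, stood at 0.86 and 1.45, the latter from 0.091, 3.56 and 0.70 in the pairs, while the B cell gene CD79A stood at −1.61 and the receptor gene FPR1 at −0.69. Of 10 Müller glia and astrocyte markers, 6 lay above 0, with a summed signal of 16.4 to 16.8 in control and 16.5 to 16.9 in treated retinas, and beside GFAP the glutamate transporter gene SLC1A3 stood at 0.58 (adjusted p = 0.164 from limma). At an unadjusted p under 0.05 this list had 2 genes higher, GFAP and SLC1A3, and 2 lower, RLBP1, the retinaldehyde carrier, at −0.45 and GLUL, glutamine synthetase, at −0.28, both lower in 3 of 3 pairs. Of all named genes, 5.02% were higher and 3.01% lower at that p. All 9 rod and cone markers lay below 0, with a median of −0.17 and 3 lower and 0 higher at that p. PDE6A stood at −0.34 and CNGA1 at −0.24. All 7 measured ganglion cell markers lay above 0, with a median of 0.22 and 4 higher and 0 lower at that p. TUBB3 stood at 0.38 and POU4F2 at 0.36. Of the pigment epithelium markers, 0 of 6 lay above 0 (MLANA −0.31, TYRP1 −0.33). The dimmer MLANA probe sets stood at 0.80, 0.59 and −1.08. RGR, with a mean log2 signal of 10.4, had −1.87, 0.72 and −0.66 in the pairs, and BEST1 had −1.95, 0.76 and −0.64. Of 4 erythrocyte markers, 2 lay above 0 (HBB 0.28, ALAS2 −0.18, median 0.094). Of 7 endothelium markers, 5 lay above 0, with a median of 0.14, CLDN5 at −0.45 and KDR at −0.68 being the 2 below, and VWF at 0.36, PECAM1 at 0.14, FLT1 at 0.58, CDH5 at 0.31 and TEK at 0.030. Markers given here beyond the 2 of each list with the largest moderated statistic are named after their values were seen.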

How the data were processed

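The deposited values are log2 signals that the authors obtained with the MAS 5.0 algorithm in GeneSpring. This algorithm scales every array by itself, and the values show no further scaling from array to array. The release of the MAS 5.0 code and its detection calls are not given in the sources used here. Values were used as deposited, without a filter on dim probe sets. The treated minus control difference of all 52024 probe sets was estimated in limma (version 3.58.1, under R 4.3.3) by lmFit and a trended eBayes, blocked on replicate number, and p-values were adjusted over the whole table (Benjamini-Hochberg). The methods' t-test was run on the same values. The sample titles give replicate numbers, and these were taken as the animals of the study's paired test. Deviations from the group means correlated at 0.357, 0.137 and 0.161 between arrays of the same number. Between control and treated arrays of unlike numbers the values ran from −0.243 to 0.104.

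Genes were named by the platform annotation, updated by gene identifier (98.6% found) with the gene table of assembly T2T-MMU8v2.0. That table also gave gene order, and no coordinates were taken from it. In lists, a gene stands for its brightest probe set by mean over the arrays. The named genes are all C/EBP probe sets, the 3 most similar genes of each factor, and up to 4 genes of a list, or 2 of a marker list, with the largest moderated statistic. Members and lists were chosen with earlier results of these data known, and the lists come from general knowledge. Scripts were tested on simulated data of 3 pairs with 200 changed probe sets. At an adjusted p under 0.05 (limma), 30% of log2 changes of 1 and 56% of changes of 2 were recovered. In the same simulation 12 unchanged probe sets were called. A gene that did not pass can thus still have changed. The alternatives were no replicate block, no trend, quantile normalization, median centring, leaving out probe sets with a mean log2 signal under 5, adding 32 to each signal, leaving out each replicate, and the methods' t-test. Python 3.11.15 and matplotlib 3.10.9 drew the figures.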

Additional observations from a re-analysis of the deposited data

How the results depend on the processing

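Of 90 values of the 9 C/EBP probe sets under the alternatives, 81 kept their sign and their side of the threshold, 4 of CEBPD passed it, and 5 changed sign. The count of C/EBP probe sets past an adjusted p of 0.05 (limma) was 1, CEBPD, after quantile normalization and 1 after median centring, and lay between 0 and 1 without 1 replicate. It was 0 without the replicate block (CEBPD 1.64, adjusted p = 0.714), without the trend (adjusted p = 0.854), by the methods' t-test (adjusted p = 0.879), with an offset of 32 (adjusted p = 0.0872) and without dim probe sets (adjusted p = 0.0612). The unadjusted p of the brighter and dimmer CEBPB probe sets was 0.0564 and 0.293 without the replicate block (limma). Without the trend it was 0.117 and 0.102 (limma), and by the methods' t-test 0.210 and 0.0314. Values that changed sign were those of the third CEBPA probe set, which lay between −0.84 and 0.51 without 1 replicate, the brighter CEBPG probe set, at 0.054 after median centring and between −0.085 and 0.020 without 1 replicate, the second CEBPG probe set, between −0.017 and 0.12, and CEBPZ, between −0.081 and 0.13. Over all probe sets, 57 were higher and 1 lower as deposited. The counts were 0 and 0 without the replicate block, without the trend (both limma) and by the methods' t-test (674 and 601, 1306 and 1583, and 1392 and 1499 at an unadjusted p under 0.05), from 17 to 166 higher and 0 to 56 lower without 1 replicate, and 2 lower after quantile normalization. With the mean over all probe sets of a gene, the median of the cytokine and NF-kB list was 0.17 that of the acute phase list 0.39 and that of the CEBPA targets −0.18. Without 1 replicate the medians of the CEBPA targets lay between −0.13 and 0.058 and those of the CEBPZ partners between −0.018 and 0.11. Where a call changed, the cause was not tested. No group of 4 or more arrays was at hand, so single arrays could not be tested as outliers.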
